A study of Mus musculus with 23 samples.

Results

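The genes described here mark the oligodendrocyte lineage and the myelin it makes, followed in bulk RNA-seq of mouse hippocampus. They were taken from a list of 31 gene symbols, of which 30 had a record in the deposited table of 13766 genes. Myrf, a transcription factor of myelinating cells, was not analysed here. By textbook stage the 30 comprised 2 genes of oligodendrocyte precursors, 3 genes expressed throughout the lineage, 3 genes of newly formed (immature) oligodendrocytes and 22 genes of myelinating cells.

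Oligodendrocytes arise from dividing precursors that carry the growth factor receptor PDGFRA and the proteoglycan NG2, pass through a short premyelinating stage, and then wrap axons in layers of membrane rich in cholesterol and galactolipids. The transcription factors Olig1, Olig2 and Sox10 act throughout this path. In the adult hippocampus myelin lies along axon tracts such as the alveus and fimbria and along scattered axons within the layers, and precursors remain present through adult life.

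The animals were FCG mice on a C57Bl/6J background, obtained from the Jackson Laboratory, bred from XX females and XY males, and killed at about 12 months of age. The Y chromosome of FCG mice lacks Sry, the gene that makes a testis, and an autosome carries it as a transgene instead, so that XX or XY animals can have either ovaries or testes. Of the 23 hippocampi, those with ovaries came from 5 XX animals (XXF) and 6 XY animals (XYF), and those with testes from 6 XX animals (XXM) and 6 XY animals (XYM). The labels name no gonadectomy or hormone treatment, and in both groups with testes the transgene is the only source of Sry. Pups were caged by the appearance of their genitalia, so cage type and gonad cannot be told apart. The crossed design separates differences that follow the sex chromosomes from those that follow the gonad. Gonad here stands for gonad, Sry transgene and cage type together, which cannot be told apart.

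Each library was 1 animal, with 10257751 to 36078221 estimated counts over the listed genes, and the least abundant member in any library still had 47.5 counts. Xist, the RNA made by the inactive X, lay between 936 and 1468 CPM (counts scaled to a common library total) in XX libraries and at or under 2.86 CPM in XY libraries, except in the library labelled XYF replicate 4, which had 94.1 CPM. Marker genes of hippocampal neurons were present in every library, with summed levels of 3797 to 5309 CPM over 8 genes. The 8 choroid plexus markers summed to between 56.8 and 3371 CPM. They lay at 1927 CPM or above in 7 libraries and at 217 CPM or under in the other 16, so 7 libraries stood apart in a marker of neighbouring tissue. Of the 7, 4 were XXM and 1 came from each other group. Summed levels of thalamus markers, 8 of 9 in the table, lay between 186 and 240 CPM. Of 5 Schwann cell markers only Prx was in the table, at 1.40 to 3.69 CPM. In bulk tissue fewer cells of a type and less RNA per cell cannot be told apart.

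Promoters of the members were searched for short motifs, and the windows holding 1 of them, ACAAAG, are shown. RefSeq (GRCm38.p6) gave a transcription start for 24 of the 30 genes. In the 250 bases before the start the motif ACAAAG, in the SOX family's binding pattern, was searched on both strands together with ACAATG and the E-box CAGCTG. Of these, ACAAAG was found for 4 of 24 genes (Cnp, Mag, Mobp and Opalin), ACAATG for 4 of 24 (Enpp6, Ermn, Olig2 and Sirt2) and CAGCTG for 1 of 24 (Aspa). Over 32544 RefSeq windows of the same length the shares holding them were 16.5%, 10.5% and 13.05%. The 4 windows with ACAAAG follow, 5′ to 3′ on the strand of the gene, with the motif or its reverse complement in capitals. A match is a run of letters and was not tested as a binding site.
Mag (chr7:30914864-30915113, minus strand): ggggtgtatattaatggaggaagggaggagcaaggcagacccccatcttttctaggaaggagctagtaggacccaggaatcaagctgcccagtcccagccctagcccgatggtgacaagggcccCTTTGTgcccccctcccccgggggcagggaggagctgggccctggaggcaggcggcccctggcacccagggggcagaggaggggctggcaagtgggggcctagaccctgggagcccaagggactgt
Cnp (chr11:100574689-100574938, plus strand): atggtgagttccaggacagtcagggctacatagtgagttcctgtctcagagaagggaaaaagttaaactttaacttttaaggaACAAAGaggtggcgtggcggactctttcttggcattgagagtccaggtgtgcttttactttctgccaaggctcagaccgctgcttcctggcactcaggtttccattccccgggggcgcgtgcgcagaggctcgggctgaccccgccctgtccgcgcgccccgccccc
Mobp (chr9:120149492-120149741, plus strand): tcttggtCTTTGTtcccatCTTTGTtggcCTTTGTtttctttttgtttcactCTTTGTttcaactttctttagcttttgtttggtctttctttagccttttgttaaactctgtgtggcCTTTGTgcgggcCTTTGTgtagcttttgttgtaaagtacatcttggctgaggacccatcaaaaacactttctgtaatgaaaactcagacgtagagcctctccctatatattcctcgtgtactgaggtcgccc
Opalin (chr19:41077114-41077363, minus strand): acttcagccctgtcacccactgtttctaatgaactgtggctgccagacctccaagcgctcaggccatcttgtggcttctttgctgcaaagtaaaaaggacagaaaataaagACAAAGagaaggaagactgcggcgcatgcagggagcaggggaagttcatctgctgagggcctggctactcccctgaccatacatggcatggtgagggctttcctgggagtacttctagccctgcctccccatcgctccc
The Mobp window held the reverse complement CTTTGT at 6 places, between 243 and 120 bases before the start. Each of the other windows held the motif at 1 place, at 126 bases before the start in Mag, 167 in Cnp and 139 in Opalin.

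Per length, the most abundant of the 30 were genes of myelinating cells, though others of that stage lay near the bottom. Levels were set per kilobase (kb) of merged exons so that genes could be ordered. Mbp, which encodes myelin basic protein, the protein that holds the cytoplasmic faces of myelin together, had 281 ± 36.4 CPM per kb (SD, n = 23). Next among the members came Qdpr, which encodes the enzyme that regenerates tetrahydrobiopterin, at 109 ± 10.6, Cnp, the enzyme of non-compact myelin, at 97.5 ± 10.7, and Mal, a membrane raft protein, at 90.9 ± 11.1 CPM per kb. Qdpr and Cnp, and Cnp and Mal, lay within the sum of their SDs of each other, while Mbp and Qdpr did not. The order did not follow the stages. Bcas1, placed at the immature stage, had 56.6 ± 7.86 CPM per kb, above Mag at 44.3 ± 5.67 and Mog at 39.0 ± 4.47. Further down, Gpr17 had 9.60 ± 0.697, Pdgfra 7.04 ± 0.630, Cspg4 2.03 ± 0.276 and Enpp6, last in the order, 1.02 ± 0.213 CPM per kb. Myelinating genes below Pdgfra were Ppp1r14a at 4.11, Nkx6-2 at 4.02, Aspa at 3.78 and Tmem125 at 3.45 CPM per kb. Together the 30 genes took from 0.435% (XXF replicate 3) to 0.653% (XXF replicate 2) of the scaled counts, of which Mbp alone made up 43.7% to 49.5%.

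**Figure D1:**
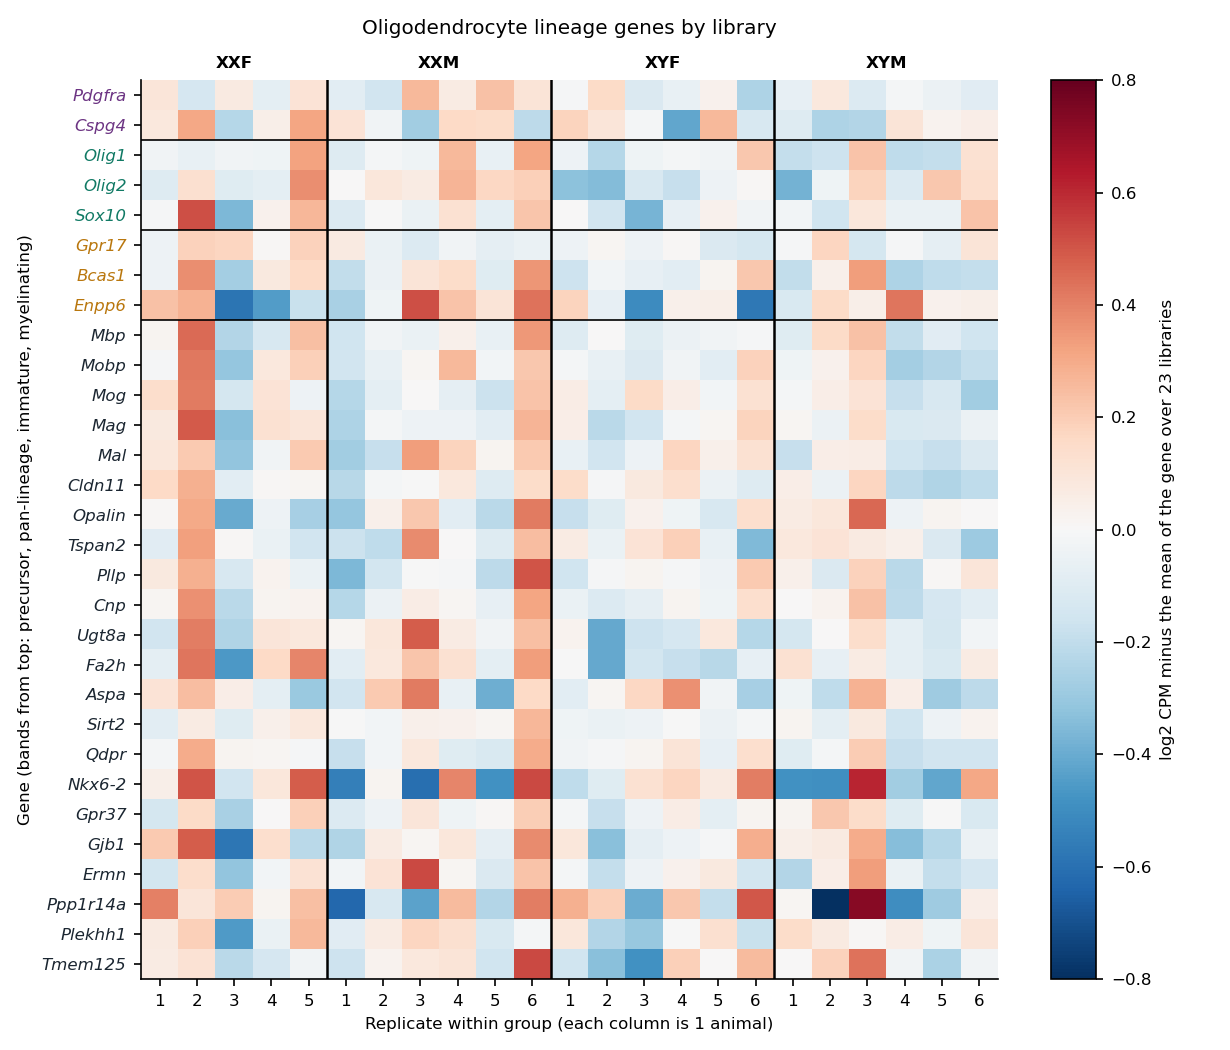
Level of each of the 30 genes (vertical axis, in bands by stage) in each of the 23 libraries (horizontal axis, by group and replicate), as log2 CPM minus the gene's mean over all libraries. XXF replicate 2, XXM replicate 6 and XYM replicate 3 are high over most of the myelinating band, and XXF replicate 3 and XXM replicate 1 are low.

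No oligodendrocyte gene passed the test for a difference between XY and XX animals, between gonads, or in the interaction of both. With edgeR's quasi-likelihood test and Benjamini-Hochberg adjustment over 13766 genes, 0 of 30 members were called at an adjusted p under 0.05 for the sex chromosome effect, against 0.283% of all genes. For the gonad effect 0 of 30 were called, against 0.16% of all genes, and for the interaction 0 of 30, where no gene of the table was called (0%). Beside shares this low, 0 of 30 does not set the members apart from other genes. At an unadjusted p under 0.05 there were 3 members for the sex chromosome effect (6.78% of all genes), 2 for the gonad (13.6% of all genes) and 1 for the interaction (3.23% of all genes, 444 genes). DESeq2 and limma called 0 members in each as well, and for the interaction they too called 0 genes of the table. Across the 33 settings tried for each, 1 of which (no filter) equals the fit given here, the smallest adjusted p of any member was 0.158 for the sex chromosomes, 0.0861 for the gonad and 0.774 for their interaction. The same fit called Tlr7, on the X segment near the boundary shared with the Y, higher in XY animals, at 1.07 (log2; edgeR adjusted p = 2.79e-07).

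The precision differed between the effects. For the sex chromosome effect the 95% intervals of 30 of 30 members lay inside a 1.3-fold change in either direction. For the gonad effect 27 of 30 did so, and 30 of 30 lay inside 1.5-fold. For the interaction 15 of 30 lay inside 1.3-fold and 28 of 30 inside 1.5-fold, and the interval of Nkx6-2 reached 0.74 on the log2 scale. In neither the XY and XX libraries nor the testes and ovaries libraries did any of the 30 genes separate the groups without overlap, where 0.102% and 0.00726% of all genes did. At such low shares this does not set the 30 genes apart either.

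**Figure D2:**
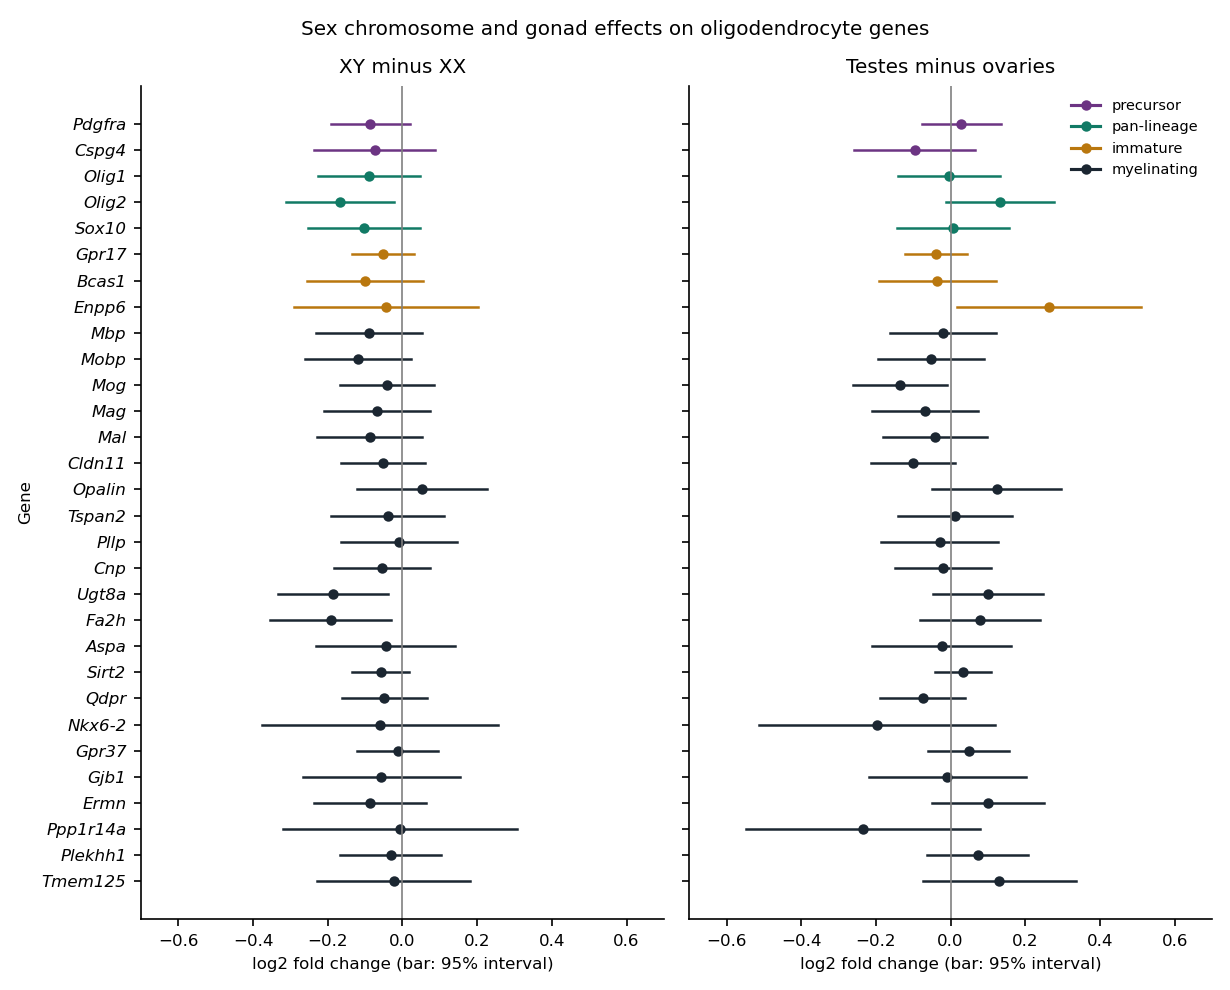
Log2 fold change of each gene (points) with its 95% interval (bars) for XY minus XX animals (left) and for animals with testes minus those with ovaries (right), coloured by stage. In the left panel 29 of 30 points lie below 0, most with intervals that cross 0. In the right panel 17 of 30 lie below 0.

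For the sex chromosomes, the fold changes were small and nearly all of 1 sign. The log2 fold change, XY minus XX, was below 0 for 29 of 30 genes, with a median of -0.06 and a range from -0.19 to 0.05, whereas over all genes 49.1% lay below 0 and the median was 0.00. The gene above 0 was Opalin, a transmembrane protein of myelinating cells, at 0.05. The genes were not independent of each other, as their covariation shows. The median also moved with single animals. Without XXF replicate 3 it was -0.09 with 29 of 30 genes below 0. Without XXF replicate 2 it was -0.02 with 23 of 30 genes below 0, and without XXM replicate 6 it was -0.03 with 24 of 30. Without the library labelled XYF replicate 4 the count stayed at 29 of 30. With the choroid plexus markers as a covariate 28 of 30 were below 0 and the median was -0.06. Of markers of other cells, 8 of 8 for choroid plexus and 6 of 7 for astrocytes also lay below 0. For thalamus it was 4 of 8, for endothelium 3 of 6, and for hippocampal neurons and microglia 2 of 8 each. Apart from covariates for choroid plexus and thalamus, their part in the count was not tested.

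Among the lineage transcription factors Olig2 had the smallest p in this comparison. Olig2 (chromosome 16, 91225550 to 91228677), needed for precursors to form, was at 21.9, 25.7, 21.9, 22.3 and 30.4 CPM in the 5 XXF libraries. Its lowest, median and highest values were 23.6, 25.7 and 28.4 CPM in XXM, 18.5, 21.1 and 23.7 CPM in XYF, and 18.1, 24.4 and 27.3 CPM in XYM. XYF had the lowest median, and every group overlapped every other. Its log2 fold change was -0.17 (SE 0.0703; edgeR adjusted p = 0.631). Sox10, which switches on myelin genes, was at 50.0, 72.0, 39.3, 51.5 and 60.4 CPM in XXF, and at 46.7, 49.3 and 58.7 CPM in XXM. In XYF it was at 38.9, 48.7 and 51.6 CPM and in XYM at 44.9, 49.0 and 58.9 CPM. All 4 groups overlapped, and the log2 fold change of Sox10 was -0.10 (95% interval -0.25 to 0.05). Olig1, its partner from the same locus as Olig2, had -0.09.

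Besides Olig2, the members with an unadjusted p under 0.05 were Ugt8a and Fa2h, 2 enzymes of galactolipid synthesis (6.78% of all genes). Ugt8a (chromosome 3, 125865343 to 125938550) encodes the transferase that makes galactosylceramide. It was at 58.0, 85.6, 54.6, 68.9 and 68.2 CPM in XXF, at 63.2, 68.0 and 90.3 CPM in XXM, at 48.5, 58.1 and 68.4 CPM in XYF, and at 58.4, 62.4 and 71.1 CPM in XYM. The highest values came from XX animals and the lowest from an XYF animal, with wide overlap between. Its log2 fold change was -0.19 (SE 0.0716; edgeR adjusted p = 0.565). Fa2h (chromosome 8, 111345138 to 111393821), which hydroxylates the fatty acid of these lipids, was at 33.3, 47.2, 25.6, 39.2 and 46.0 CPM in XXF, at 33.0, 37.7 and 44.2 CPM in XXM, at 26.4, 31.3 and 35.1 CPM in XYF, and at 32.2, 35.1 and 38.3 CPM in XYM. The lowest Fa2h value of all, like 2 of the 3 highest, was from an XXF animal. Its log2 fold change was -0.19 (SE 0.0782; edgeR adjusted p = 0.609). Of the other myelin enzymes, Cnp, Aspa, Sirt2 and Qdpr had log2 fold changes between -0.06 and -0.05, with p of 0.125 or more.

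The genes of myelin sheath proteins gave log2 fold changes between -0.12 (Mobp) and 0.05 (Opalin). Mbp (chromosome 18, 82475123 to 82585637) was at 2393, 3234, 2009, 2157 and 2786 CPM in XXF, at 2116, 2294 and 3001 CPM in XXM, at 2198, 2302 and 2366 CPM in XYF, and at 2063, 2212 and 2773 CPM in XYM. The XYF animals lay close together, inside the range of each other group. Its log2 fold change was -0.09 (95% interval -0.23 to 0.05). Mog (chromosome 17, 37010740 to 37023398), a protein of the outermost myelin surface, was at 72.7, 88.2, 59.9, 71.4 and 64.2 CPM in XXF, at 56.3, 62.7 and 77.3 CPM in XXM, at 62.6, 68.6 and 73.3 CPM in XYF, and at 54.4, 62.9 and 71.2 CPM in XYM. All 4 groups overlapped, and the log2 fold change was -0.04 (95% interval -0.17 to 0.08). Over the 9 sheath protein genes the median was -0.05, over the 6 enzyme genes -0.06, and over the 6 genes of receptor, junction and cell-shape proteins it was -0.03.

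Precursor and premyelinating genes were likewise within the spread between animals. Pdgfra (chromosome 5, 75152291 to 75198204), the receptor that drives precursor division, was at 75.4, 63.9, 73.9, 66.6 and 75.7 CPM in XXF, at 63.3, 74.6 and 84.2 CPM in XXM, at 59.2, 68.6 and 78.2 CPM in XYF, and at 65.2, 67.5 and 74.5 CPM in XYM. Cspg4 (chromosome 9, 56865104 to 56899870), which encodes NG2 and is also expressed by pericytes, was at 25.4, 29.8, 20.5, 24.8 and 29.9 CPM in XXF. It was at 19.8, 24.7 and 26.8 CPM in XXM, 17.9, 24.7 and 28.7 CPM in XYF, and 20.2, 23.4 and 25.8 CPM in XYM. In both genes the 4 groups overlapped over most of their range. The log2 fold changes were -0.09 (95% interval -0.19 to 0.02) for Pdgfra and -0.07 (-0.24 to 0.09) for Cspg4. Enpp6 (chromosome 8, 46986925 to 47094895), a choline phosphodiesterase of newly forming oligodendrocytes, had -0.04 (-0.29 to 0.20), and Gpr17, a receptor that holds cells at the premyelinating stage, had -0.05 (-0.14 to 0.03). Bcas1, a marker of cells starting to myelinate, had -0.10 (-0.26 to 0.06).

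**Figure D3:**
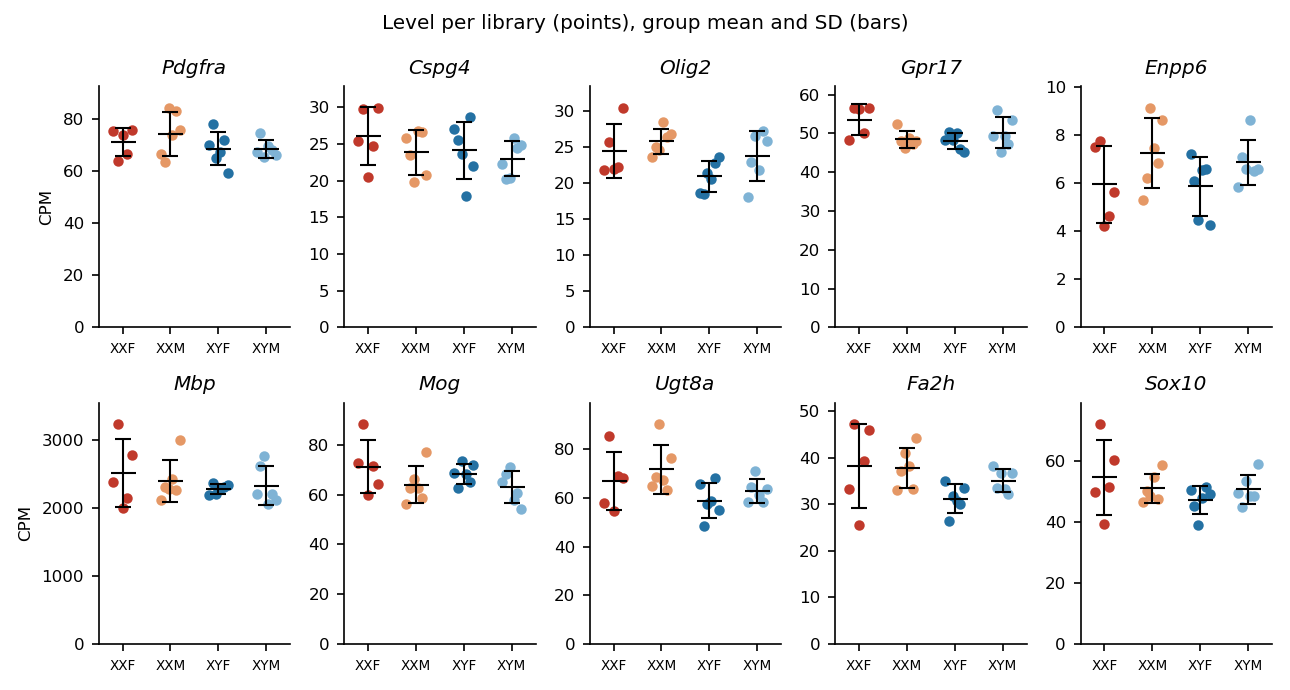
CPM (vertical axes, from 0) of 10 genes in each library (points) by group, with the group mean and SD (bars). Values of the 4 groups overlap in every panel, and XXF animals are the most spread for Mbp, Mog, Sox10 and Fa2h.

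The gonad comparison gave no common sign. The log2 fold change, testes minus ovaries, was below 0 for 17 of 30 genes and its median was -0.01, with 51% below 0 and a median of 0.00 over all genes. Mog had the smallest p, at -0.14 (SE 0.0608; edgeR adjusted p = 0.331), lower in animals with testes. For Enpp6, the difference pointed the other way. Its values were 7.51, 7.77, 4.22, 4.66 and 5.63 CPM in XXF, 5.32, 7.16 and 9.15 CPM in XXM, 4.27, 6.34 and 7.22 CPM in XYF, and 5.86, 6.59 and 8.62 CPM in XYM. The lowest Enpp6 values were all from animals with ovaries, and the rest overlapped. The log2 fold change of Enpp6 was 0.26 (SE 0.120; edgeR adjusted p = 0.337). Olig2 came next, at 0.13 (SE 0.0703; edgeR adjusted p = 0.406). Mbp was at -0.02 (95% interval -0.16 to 0.12), Pdgfra at 0.03 (-0.08 to 0.14), Cspg4 at -0.10 (-0.26 to 0.06) and Gpr17 at -0.04 (-0.12 to 0.04). The largest fold change below 0 in size belonged to Ppp1r14a, an inhibitor of myosin phosphatase, at -0.23 with an interval from -0.55 to 0.08.

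Markers of other cells were read along the gonad contrast too. The 8 microglia markers had a median log2 fold change of -0.15 and the 8 choroid plexus markers of 0.75. In either list 0 were called (0.16% of all genes). The choroid plexus median was 1.82 for XXM minus XXF and -0.22 for XYM minus XYF. Summed microglia markers had medians of 461 CPM in XXF, 466 in XXM, 514 in XYF and 441 in XYM. Their part in the values of the oligodendrocyte genes was not tested, except that with choroid plexus markers as a covariate 16 of 30 genes lay below 0 for the gonad effect and 0 were called.

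Within the 4 single comparisons, Gpr17 stood first in 2. Gpr17 (chromosome 18, 31942999 to 31949636) was at 48.3, 56.5, 56.2, 50.1 and 56.5 CPM in XXF, at 46.2, 48.0 and 52.3 CPM in XXM, at 45.1, 48.4 and 50.3 CPM in XYF, and at 45.2, 49.4 and 56.1 CPM in XYM. Of the XXF animals, 3 lay above every animal of the other groups, and the other 2 lay within their range. The log2 fold change of Gpr17 was -0.15 for XYF minus XXF (SE 0.0594; edgeR adjusted p = 0.762). For XXM minus XXF it was -0.14 (SE 0.0588; edgeR adjusted p = 0.633). These comparisons share the XXF libraries. The interaction for Gpr17 was 0.20 (SE 0.0815; edgeR adjusted p = 0.999), followed by Sox10 at 0.19 and Fa2h at 0.18, with the same adjusted p.

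None of the single comparisons called a member. For XYF minus XXF 0 of 30 were called (0.291% of all genes), and 3 had an unadjusted p under 0.05 (5.17% of all genes), namely Gpr17, Fa2h at -0.28 (edgeR adjusted p = 0.821) and Olig2 at -0.21 (adjusted p = 0.955). For XYM minus XXM 0 of 30 were called (0.116% of all genes) and 0 passed unadjusted (5.29% of all genes). There the smallest p belonged to Ugt8a at -0.19 (edgeR adjusted p = 0.930) and Pdgfra at -0.12 (adjusted p = 0.938). For XXM minus XXF edgeR called 0 of 30, and no gene of the table (0%; DESeq2 called 1). Of the members 1 passed unadjusted, Gpr17 (7.71% of all genes, 1061 genes), and Mog came next at -0.15 (edgeR adjusted p = 0.683). For XYM minus XYF 0 of 30 were called (0.225% of all genes) and 0 passed unadjusted (8.63% of all genes). Olig2 was at 0.18 (edgeR adjusted p = 0.614) and Fa2h at 0.17 (adjusted p = 0.670). Testing any difference among the 4 groups called 0 of 30 (0.508% of all genes), with 2 members passing unadjusted (8.95% of all genes). The shares called over all genes were low here too, so 0 of 30 called does not set the members apart.

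Below 0 were 28 of 30 members for XYF minus XXF (47.7% of all genes) and 24 of 30 for XYM minus XXM (51.1% of all genes), with medians of -0.06 and -0.05. Below 0 were 15 of 30 for XXM minus XXF (49.7% of all genes), 17 of 30 for XYM minus XYF (52.7% of all genes) and 14 of 30 for the interaction (52.2% of all genes). These counts moved with single animals. Without XXF replicate 2 they were 16 of 30 for XYF minus XXF and 8 of 30 for XXM minus XXF, and without XXM replicate 6 they were 15 of 30 for XYM minus XXM and 6 of 30 for the interaction. Without XXF replicate 3 the interaction count was 8 of 30, and without XYM replicate 4 it was 9 of 30. The median for XYF minus XXF was -0.01 without XXF replicate 2, -0.11 without XXF replicate 3 and -0.09 without XYF replicate 6. For XYM minus XXM it was 0.00 without XXM replicate 6, -0.03 without XYM replicate 4 or 5, -0.09 without XXM replicate 1 and -0.11 without XYM replicate 3.

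**Figure D4:**
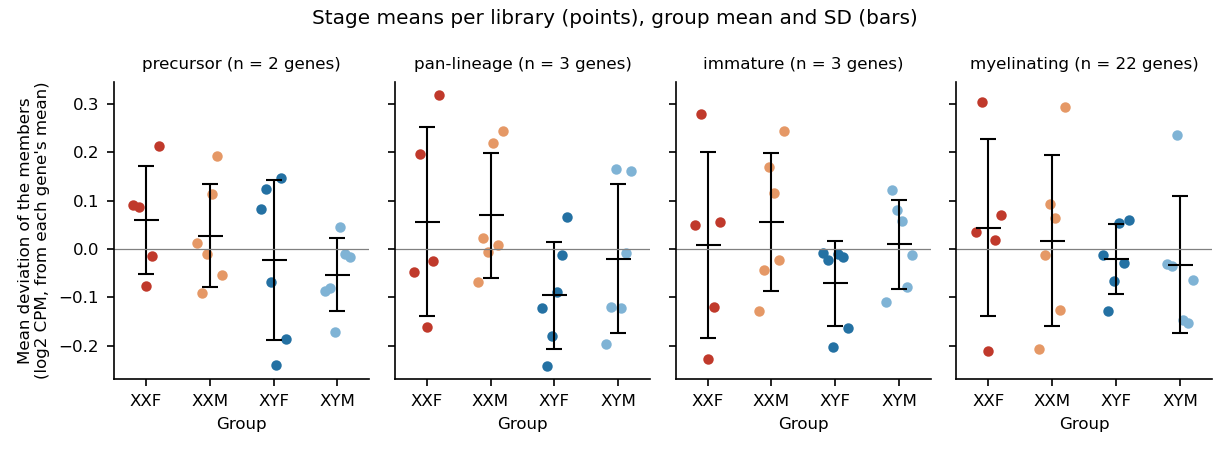
Mean deviation of the genes of each stage from their own means (vertical axis, log2 CPM) in each library (points), with the group mean and SD (bars). For the 22 myelinating genes 3 animals from 3 different groups lie highest, while the XYF animals lie close to 0.

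The spread between animals in XXF, XXM and XYM was larger than the span of the group means. The mean log2 CPM of the 22 myelinating genes was 6.17 ± 0.183 (SD, n = 5) in XXF, 6.15 ± 0.177 (n = 6) in XXM, 6.11 ± 0.0722 (n = 6) in XYF and 6.10 ± 0.142 (n = 6) in XYM. From the lowest to the highest library it spanned 1.43-fold, compared with 1.37-fold for precursor, 1.47-fold for pan-lineage and 1.42-fold for immature genes. XXF replicate 2 was highest, with 22 of 22 genes above their own medians, at 1.23 times the average. XXM replicate 6 and XYM replicate 3 followed, each with 21 of 22. XXF replicate 2 also had the lowest total of all libraries, 10257751 estimated counts. The totals of XXM replicate 6 and XYM replicate 3 were 21831384 and 22187046. A part of depth in these levels was not tested. XXF replicate 3 was lowest at 0.864 times the average, with 4 of 22 above their medians, and XXM replicate 1 had 2 of 22. The highest and the lowest animal thus both belonged to XXF.

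Markers of neighbouring tissue had no common order over these animals. Summed markers of hippocampal neurons, astrocytes and microglia were each higher in the 3 highest than in the 2 lowest. Summed choroid plexus markers were 169, 133 and 208 CPM in the 3 highest animals, and 69.8 and 2081 CPM in XXF replicate 3 and XXM replicate 1. Thalamus markers were at 206, 207 and 192 CPM in the 3 highest and at 196 and 189 CPM in the 2 lowest. The 8 hippocampal neuron markers summed to 5120, 5176 and 5309 CPM in the 3 highest, and to 4173 and 4523 CPM in the 2 lowest. Sums as high were not limited to the 3 highest. XXF replicate 5 had 5237 CPM and XYF replicate 2 had 5184 CPM, and they ranked 5 and 19 of 23 for the myelinating genes. Astrocyte markers summed to 5591, 5983 and 6116 CPM in the 3 highest and to 5570 and 5299 CPM in the 2 lowest. Microglia markers were at 489, 497 and 506 CPM in the 3 highest and at 481 and 417 CPM in the 2 lowest. Endothelium markers did not show this order, at 180, 190 and 183 CPM against 174 and 192 CPM. Their part in the myelin levels was not tested.

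Single genes differed in how much they varied within groups. The median within-group SD was 0.184 on the log2 scale for the 30 members and 0.153 for all genes. Sirt2, a deacetylase found in myelin, was the least variable at 0.0812, followed by Gpr17 at 0.0893 and Pdgfra at 0.127. The most variable were Nkx6-2, a homeodomain factor of myelinating cells, at 0.391 and Ppp1r14a at 0.389, followed by Enpp6 at 0.298. In that order their levels were 4.02, 4.11 and 1.02 CPM per kb, low among the 30. The SDs were not compared at matched level, so low counts may add to them. Across libraries the highest value of Ppp1r14a was 3.01 times the lowest, against 1.25 times for Gpr17 and 1.61 times for Mbp.

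Levels of myelinating genes varied together from animal to animal, with little relation to those of the 2 precursor genes. Over the 231 pairs of myelinating genes the median Pearson correlation of log2 CPM across 23 libraries was 0.54, ranging from -0.09 to 0.91, with 225 pairs above 0. On deviations from group means the median was 0.59. Over the 44 pairs of a precursor with a myelinating gene the median was -0.06, over 66 pan-lineage pairs 0.41 and over 66 immature pairs 0.30. All pairs share the library and its scaling, so these are descriptions. No median over pairs of other genes is given here to set beside them. Cnp had the highest median correlation with the other myelinating genes, 0.73, and Aspa, which breaks down N-acetylaspartate, the lowest, 0.29. The 4 genes whose promoters are printed above had medians of 0.73 (Cnp), 0.65 (Mobp), 0.65 (Mag) and 0.53 (Opalin). Myelinating genes whose searched window lacked ACAAAG had medians from 0.29 (Aspa) to 0.63 (Gjb1). A link between the motif and the covariation was not tested. The closest pairs were Mag with Cnp (r = 0.908) and Bcas1 with Cnp (r = 0.908).

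The genes placed at the immature stage did not behave alike. Bcas1 had a median correlation of 0.68 with the 22 myelinating genes, close to that of the myelin genes themselves. Enpp6 had 0.30 and Gpr17 -0.05. Pdgfra and Cspg4, both precursor genes, had -0.06 and -0.08. Among the pan-lineage factors Sox10 had 0.52, Olig1 0.44 and Olig2 0.31.

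Of 6 pairs that were tested, 2 passed. Mog and Mag, an adhesion protein of the innermost myelin layer, had r = 0.784 (2-sided permutation test, p = 2e-05, adjusted over the 6 pairs p = 0.00012) and Spearman rho = 0.709 (permutation p = 0.00031, adjusted p = 0.00186). Without the 2 libraries farthest from the median of Mog, r was 0.730, and on deviations from group means it was 0.802. Mog and Mbp had r = 0.695 (permutation p = 0.00022, adjusted p = 0.00066) and rho = 0.542 (permutation p = 0.00816, adjusted p = 0.0245). Without the 2 farthest libraries, r was 0.521, and on deviations from group means 0.749. The animal with the most Mog, XXF replicate 2, also had the most Mag and Mbp.

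The other 4 pairs did not pass. Mog with Sox10 had r = 0.356 (permutation p = 0.0940, adjusted p = 0.188) and rho = 0.243 (permutation p = 0.264, adjusted p = 0.528), and r = 0.220 without the 2 farthest libraries. Mog with Enpp6 had r = 0.0961 (permutation p = 0.664, adjusted p = 0.796) and rho = 0.141 (permutation p = 0.519, adjusted p = 0.623). Mog with Pdgfra had r = -0.207 (permutation p = 0.342, adjusted p = 0.513) and rho = -0.179 (permutation p = 0.415, adjusted p = 0.623), and without the 2 farthest libraries r was -0.184. The precursor genes Pdgfra and Cspg4 also showed little relation to each other, with r = 0.0209 (permutation p = 0.926, adjusted p = 0.926) and rho = 0.0791 (permutation p = 0.721, adjusted p = 0.721), and r = 0.124 without the 2 farthest libraries. On deviations from group means, r was 0.407 for Mog with Sox10 and 0.354 for Mog with Enpp6. On the same deviations it was -0.224 for Mog with Pdgfra and -0.0106 for Pdgfra with Cspg4. These 4 values were not tested.

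**Figure D5:**
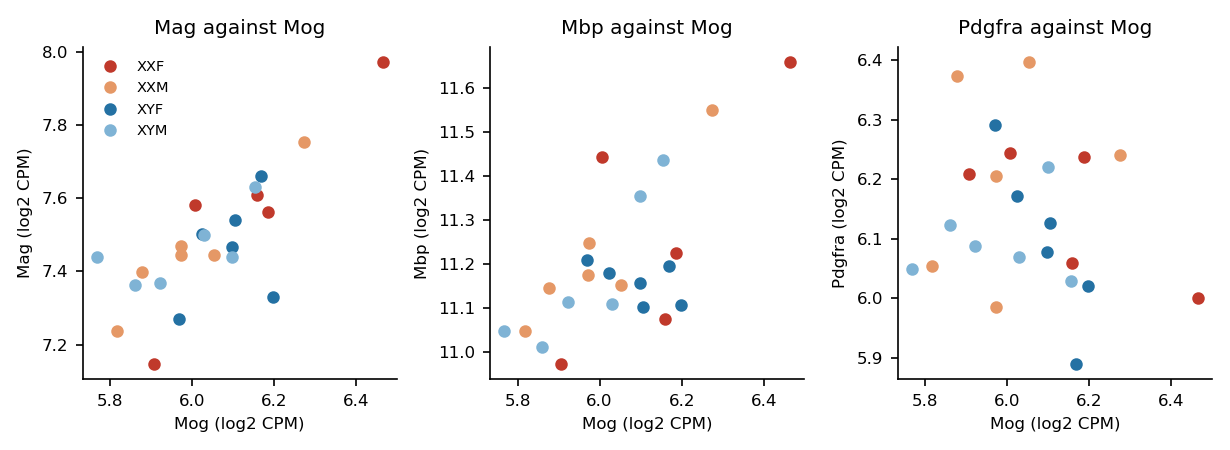
Log2 CPM of Mag (left), Mbp (middle) and Pdgfra (right) against that of Mog in the 23 libraries, coloured by group. Mag and Mbp rise with Mog (r = 0.784 and 0.695), Pdgfra does not (r = -0.207), and XXF replicate 2 is the point at the far right.

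Other genes of the pathway, outside the list of 31, showed the same picture of small differences. Of 6 further lists, 73 genes in all, edgeR called 0 for the sex chromosome effect, against 0.283% of all genes. For the gonad effect it called 0, against 0.16% of all genes. With shares this low, 0 of 73 does not set these lists apart. Among 17 other genes of mature oligodendrocytes 15 had a log2 fold change below 0 for XY minus XX, with a median of -0.06. Over all genes 49.1% lay below 0.

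Lipid and junction genes beside Ugt8a and Fa2h were read for the same contrast. Of 7 genes of myelin lipid metabolism (Cers2 was not analysed here) 5 lay below 0, with a median of -0.03. Gal3st1, which adds sulfate to galactosylceramide to make sulfatide, had -0.19 (SE 0.0787; edgeR adjusted p = 0.632). Of 11 genes of the axon-myelin junction (Sptbn4 was not analysed here) 9 lay below 0, with a median of -0.02. The share below 0 over all genes was 49.1%. Kcna2, a potassium channel of the juxtaparanode, had -0.10 (edgeR adjusted p = 0.672).

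Further precursor, premyelinating and signalling genes were counted in the same way. Below 0 were 9 of 14 precursor genes (median -0.02), 5 of 8 premyelinating genes (median -0.02) and 12 of 16 signals and receptors (median -0.04). Again the share over all genes was 49.1%. The smallest p in each belonged to Sox6, a factor that keeps precursors undifferentiated, at -0.14 (edgeR adjusted p = 0.565), to Bmp4 at -0.40 (adjusted p = 0.838) and to the neuregulin receptor Erbb3 at -0.21 (adjusted p = 0.667).

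Along the gonad contrast the nearest to the threshold was Ptprz1, a receptor phosphatase of precursors and astrocytes. Its lowest, median and highest values were 250, 273 and 326 CPM in XXF, 292, 307 and 355 CPM in XXM, 238, 265 and 294 CPM in XYF, and 263, 315 and 352 CPM in XYM. Animals with testes were higher in their medians, with overlap. The difference was 0.21 on the log2 scale (SE 0.0518; edgeR adjusted p = 0.0960). With DESeq2 the adjusted p was 0.0234, and with edgeR it was 0.0219 without XXF replicate 5 and 0.0259 without XYM replicate 1. Of 7 astrocyte markers, 5 had an unadjusted p under 0.05 in the same contrast (13.6% of all genes), 2 higher and 3 lower. Their part in the Ptprz1 value was not tested.

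For the remaining lists the gene with the smallest p in the gonad contrast was Anln among other mature genes (0.18; edgeR adjusted p = 0.264), Arsa, which breaks down sulfatide, among the lipid genes (-0.10; adjusted p = 0.346) and Cadm4, an adhesion protein facing the axon, among junction genes (-0.14; adjusted p = 0.258). In the premyelinating list it was Itpr2 (0.09; edgeR adjusted p = 0.331), and among signals and receptors Erbb4 (0.33; adjusted p = 0.243), a neuregulin receptor that interneurons also express. The list medians in this contrast lay between -0.03 and 0.07.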

How the data were processed

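RNA was measured in 23 hippocampi, 1 library per animal. Per the labels' protocols, 500 ng of total RNA per animal was depleted of ribosomal RNA and made into strand-specific libraries. The submitters' processing notes name the mm10 build and DESeq. Which aligner, counter and strand setting were used was not given in the sources used here.

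The authors deposited raw estimated counts per gene, which need not be whole, and normalized values on a log2 scale. A gene entered the table, per the file headers, if every library (100%) of some group had a raw value of 20 or more. Estimated counts were rounded, scaled by the trimmed mean of M-values, and tested in edgeR (version 4.0.16, R version 4.3.3) with 4 group means and 1 shared spread. The filterByExpr function removed 0 genes. Effects are contrasts of group means, with Benjamini-Hochberg adjustment over 13766 genes and calls at an adjusted p under 0.05. All tests were 2-sided. Log2 CPM used a prior count of 2. The edgeR p-values set differences between group means against the spread between these animals. Replicate numbers follow accession order and pair nothing.

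DESeq2 (version 1.42.0), limma (version 3.58.1), other scalings, marker covariates, a filter at a mean of 5 CPM and leaving out each library were the alternatives. The deposited log2 values entered only 1 alternative. Steps were tested on simulated data. The members and lists were chosen with earlier results of these data known. Values in every group are given for Pdgfra, Cspg4, Gpr17, Enpp6, Mbp and Mog and for the members with the smallest p in each comparison. The single-gene values of 2 genes of the further lists are not reported here. Further genes named have the smallest p of their list, or are named for their role, level or spread after their values were seen. Exon lengths came from GENCODE M21 and promoters from RefSeq, both on GRCm38.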

Additional observations from a re-analysis of the deposited data

Results flagged for a closer look

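Of 136 sets of values (30 genes and 4 stage means in each of 4 groups), 9 had 1 library far from the others, where chance gives about 1 in 20. Of the 9, 4 came from XXM replicate 6: Mbp at 3001 CPM (next highest 2429), Pllp, a plasma membrane proteolipid of myelin, at 75.7 CPM (next 53.2), Sirt2 at 161 CPM (next 138) and Tmem125 at 11.5 CPM (next 8.57). In XYM replicate 3 Opalin was at 36.9 CPM (next 28.5), and the mean log2 CPM of the 22 myelinating genes was 6.37 (next 6.10). Qdpr was at 237 CPM in XXF replicate 2 (next 196). Olig1 was at 102 CPM in XXF replicate 5 (next 79.8), and Mobp was at 313 CPM in XYF replicate 6 (next 273). Every one of these 9 was the highest library of its group.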

How the results depend on the processing

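The count of oligodendrocyte genes called was 0 in all 8 comparisons and all settings tried. The number of all genes called moved by over 1.5 times as follows, and the cause was not tested. For the sex chromosome effect (39 genes) it was 68 with limma voom and sample quality weights, 64 with choroid plexus markers as a covariate and 60 with DESeq2. For the gonad effect (22) it was 76, 43 and 98 in the same order, and 11 with the 5 CPM filter, which tests fewer genes. For any difference (70) it was 152 with quality weights, 121 with DESeq2 and 46 with the filter. For XYM minus XYF (31) it was 47 with DESeq2, 18 with the filter and 15 with only those 2 groups in the fit, and for XXM minus XXF (0) it was 1 with DESeq2.

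Leaving out 1 library gave 34 to 48 genes for the sex chromosome effect, 17 to 85 for the gonad effect, 0 to 3 for the interaction and 53 to 81 for any difference. It gave 32 to 51 for XYF minus XXF, 15 to 17 for XYM minus XXM, 0 to 0 for XXM minus XXF and 19 to 50 for XYM minus XYF. For the gonad effect the counts beyond 1.5 times were 85 without XXF replicate 5, 49 without XYM replicate 1, 42 without XYF replicate 1 and 34 without XYF replicate 5. The interaction had 3 without XYM replicate 1 and 1 without XYF replicate 1. XYM minus XYF had 50 without XYM replicate 1, 20 without XYF replicate 2 or XYM replicate 2, and 19 without XYM replicate 4, 5 or 6.

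The log2 fold change of Enpp6 for XY minus XX turned from -0.04 to 0.10 with quality weights, and ranged from -0.094 to 0.013 when 1 library was left out, above 0 without XXF replicate 1 or 2. That of Mog ranged from -0.070 to 0.00062, turning without XXF replicate 2. For the gonad effect Mbp ranged from -0.057 to 0.034, turning without XXF replicate 2 or 5. The number of members below 0 for the sex chromosome effect was 26 to 29 under the other alternatives. Leaving out 1 library gave 6 to 20 members below 0 for the interaction (14) and 8 to 20 for XXM minus XXF (15). No paired analysis was possible because the labels give no replicate numbers shared between groups. At this depth and number of animals the 95% intervals lay inside 1.3-fold for 30 of 30 members in the sex chromosome effect. They did so for 27 of 30 in the gonad effect and for 15 of 30 in the interaction.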
